A study of Mus musculus with 27 samples.

Results

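A set of 10 genes of zinc, copper and manganese handling was followed across hepatocyte RNA from 9 inbred mouse strains. They were chosen by name: the 10 rows, of 43346 gene rows in the deposited table, whose Ensembl identifier carries the GENCODE M21 symbol Mt1, Mt2, Mtf1, Slc30a1, Slc30a10, Slc39a4, Slc39a8, Atp7b, Cp or Slc31a1. All 10 were found, and all 10 were among the 14482 genes with enough counts to be tested. Histone marks and DNA methylation were surveyed in the same animals, and the question was how genetic differences bear on chromatin and on transcript levels. Only the RNA is described here. Each of 27 libraries came from hepatocytes of the liver of a female mouse aged 12 weeks, and each strain had 3 libraries that the labels call biological replicates. Of the strains, WSB/EiJ, PWK/PhJ and CAST/EiJ are wild-derived, and NZO/HlLtJ, A/J, 129S1/SvImJ, C57BL/6J, NOD/ShiLtJ and DBA/2J are laboratory strains. The labels name no treatment, diet or reference strain, so each strain was compared with the others. They do not give how the hepatocytes were separated from other liver cells.

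Liver cells hold and trade zinc, copper and manganese for the whole animal. Metallothioneins are small cysteine-rich proteins that bind zinc and copper, and their genes are switched on by metals through the zinc-sensing transcription factor MTF1, which binds short metal response elements, and also by glucocorticoids and inflammation. Transporters of the SLC30 family move zinc or manganese out of the cytosol, those of the SLC39 family move zinc, manganese or iron into it, and copper enters through SLC31A1 and leaves through the copper pump ATP7B, which loads it onto the secreted ferroxidase ceruloplasmin or passes it into bile.

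The libraries held between 17015942 and 35078485 counts. Levels are CPM, the gene's counts as a share of the library's counts after TMM scaling, on the usual per-million scale, and differences between strains are log2 values with a standard error (SE) from edgeR's quasi-likelihood fit over all 27 libraries. A gene was called where the Benjamini-Hochberg adjusted p over all tested genes was under 0.05. These p-values measure the spread between the 3 libraries of a strain, and each library was taken as 1 mouse because the labels say no more. All 10 hepatocyte markers were present in every strain, with a summed level of 124600 to 378800 CPM. All 10 Kupffer cell markers were detected too, at 35.0 to 442 CPM in sum, as were all 10 liver endothelial markers, at 62.2 to 776 CPM. The mean log2 level of the Kupffer list was highest in C57BL/6J (4.10 ± 0.28, SD, n = 3) and A/J (3.83 ± 0.55) and lowest in 129S1/SvImJ (1.92 ± 0.56) and CAST/EiJ (1.98 ± 0.15). Albumin took 18.7% ± 0.913 of the counts in A/J and 15.02% ± 1.20 in WSB/EiJ, against 9.97% to 13.2% in the other strains. For transcript length, each gene's log2 level was taken as its deviation from that gene's mean over all 27 libraries. On that scale the median of transcripts of 3000 bases or more was set against that of transcripts under 1000 bases. Long transcripts stood higher by a log2 of 0.27 in A/J, 0.24 in C57BL/6J and 0.11 in WSB/EiJ. They stood lower by 0.19 in CAST/EiJ, 0.17 in NZO/HlLtJ, 0.13 in NOD/ShiLtJ and 0.10 in 129S1/SvImJ. DBA/2J and PWK/PhJ stood at 0.04 and 0.00. In bulk RNA, fewer cells of a type and less RNA per cell cannot be told apart.

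Per kilobase of the principal transcript, the members spanned more than 2 orders of magnitude. Ceruloplasmin (Cp) averaged 414 CPM per kilobase over all libraries, followed by Mt1 at 158, Mt2 at 128 and the copper importer Slc31a1 at 64.1. The zinc importer Slc39a4 stood at 24.5, the manganese exporter Slc30a10 at 14.1, the importer Slc39a8 at 11.7, Atp7b at 8.13 and the zinc exporter Slc30a1 at 7.42. Mtf1 was the lowest, at 1.27 CPM per kilobase. All values below are CPM without the length correction, and serve to compare strains within 1 gene.

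Across the 9 strains 8 of the 10 genes differed, which is 80% where 74.2% of all tested genes were called, so the share is near that of the transcriptome. The smallest adjusted p-values from edgeR were those of 5 transporter genes and Cp: Slc39a4 (9.9e-06), Slc31a1 (1.83e-05), Cp (7.46e-05), Slc39a8 (0.000913), Slc30a1 (0.0011) and Atp7b (0.00149). Mt2 (0.0378) and Slc30a10 (0.049) lay close to the threshold, and Mt1 (0.0522) and Mtf1 (0.456) did not pass. The median share of variance lying between strains was 68.4% for the members and 66.6% for all tested genes, and the median log2 range of the strain means was 1.08 against 1.16. Of the 360 combinations of a member and a pair of strains, 89 (24.7%) were called, where 23.4% of such combinations were called over all genes.

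**Figure D1:**
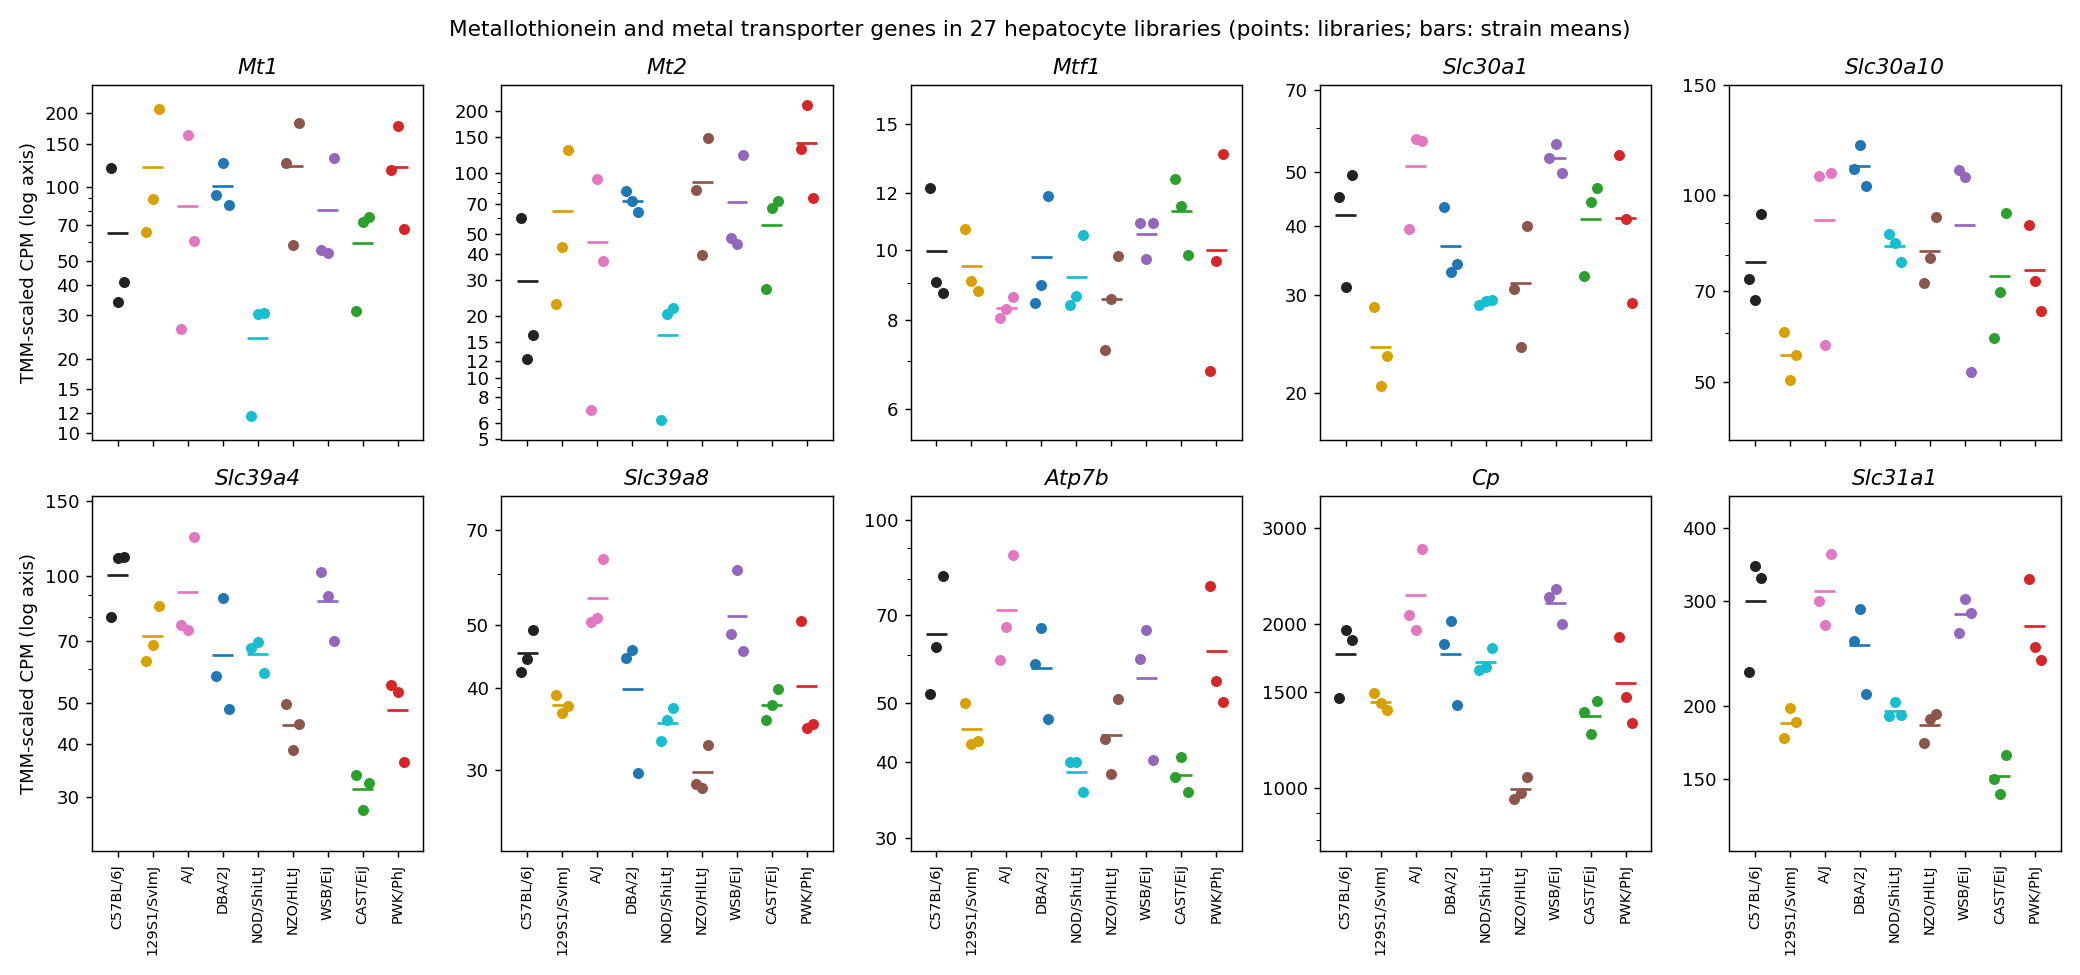
Level of each gene in every library, in TMM-scaled CPM on a log axis, by strain; points are libraries and bars are strain means (n = 3). The points of 1 strain scatter widely for Mt1 and Mt2 and lie close together for Cp, Slc31a1 and Slc39a8, and the CAST/EiJ points for Slc39a4 and Slc31a1 and the NZO/HlLtJ points for Cp lie below those of every other strain.

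Mt1 (ENSMUSG00000031765, GRCm38 chromosome 8, 94179082 to 94180327, plus strand) and Mt2 (ENSMUSG00000031762, chromosome 8, 94172664 to 94173568, plus strand) lie side by side and encode the metallothioneins of the liver. NOD/ShiLtJ had the lowest mean of both, and the highest means were those of NZO/HlLtJ, 129S1/SvImJ and PWK/PhJ for Mt1 and of PWK/PhJ and NZO/HlLtJ for Mt2. In NOD/ShiLtJ the 3 libraries had 11.7, 30.5 and 30.8 CPM of Mt1 and 6.20, 20.4 and 21.9 CPM of Mt2, always in the order of replicates 1, 2 and 3. In NZO/HlLtJ Mt1 stood at 125, 58.2 and 183 CPM, in 129S1/SvImJ at 65.6, 89.5 and 209 and in PWK/PhJ at 118, 177 and 67.8. All 3 NOD/ShiLtJ libraries lay below those of these 3 strains, and of the other 5 strains 1 library fell within the NOD/ShiLtJ range, A/J replicate 1 at 26.5 CPM.

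Mt1 in DBA/2J, the strain whose libraries agreed best in relative terms, was 93.0, 125 and 84.9 CPM (replicates 2, 3 and 4). The libraries of the other strains were farther apart: 26.5, 164 and 60.4 CPM in A/J, 120.1, 34.1 and 41.1 in C57BL/6J (replicates 1, 2 and 4), 55.7, 54.1 and 131 in WSB/EiJ (replicates 2, 3 and 4) and 31.1, 71.8 and 75.3 in CAST/EiJ (replicates 1, 4 and 5). One library stood high in each of C57BL/6J, A/J and WSB/EiJ, and 1 stood low in CAST/EiJ. The strain means ran from 122 ± 62.4 (SD, n = 3) in NZO/HlLtJ through 121 ± 76.8 in 129S1/SvImJ, 121 ± 54.9 in PWK/PhJ, 101 ± 21.3 in DBA/2J, 83.5 ± 71.4 in A/J, 80.3 ± 44.1 in WSB/EiJ, 65.1 ± 47.7 in C57BL/6J and 59.4 ± 24.6 in CAST/EiJ to 24.3 ± 11.0 CPM in NOD/ShiLtJ. No neighbours in this order passed the test. The libraries of CAST/EiJ and NOD/ShiLtJ, the last pair, did not overlap (log2 1.29 ± 0.61, edgeR adjusted p = 0.123). Of the 36 strain pairs 6 were called for Mt1, and all 6 set NOD/ShiLtJ below another strain.

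For Mt2 the order began with PWK/PhJ, whose libraries had 130.3, 215 and 75.6 CPM, and ended with NOD/ShiLtJ. C57BL/6J came next to last, with 60.0, 12.3 and 16.2 CPM. A/J was the most scattered, at 6.99, 93.1 and 37.0 CPM. The values were 82.5, 39.8 and 147 in NZO/HlLtJ, 81.1, 72.5 and 64.2 in DBA/2J, 47.9, 44.9 and 122 in WSB/EiJ, 22.9, 43.4 and 129 in 129S1/SvImJ and 27.1, 67.2 and 72.9 in CAST/EiJ. These 5 strains overlapped one another. PWK/PhJ over NOD/ShiLtJ made a log2 difference of 3.12 ± 0.79 (SE), and 4 of 36 pairs were called: NOD/ShiLtJ below NZO/HlLtJ, PWK/PhJ and WSB/EiJ, and C57BL/6J below PWK/PhJ.

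Against the mean of the other 8 strains, Mt1 fell by 1.90 ± 0.53 on the log2 scale in NOD/ShiLtJ (edgeR adjusted p = 0.0153) and Mt2 fell by 2.01 ± 0.66 (adjusted p = 0.0397). Mt2 rose in PWK/PhJ by 1.5 ± 0.48 (adjusted p = 0.0175), where Mt1 differed by 0.70 ± 0.42 (adjusted p = 0.217). Without replicate 1 of NOD/ShiLtJ, its lowest library, neither gene was called there, with adjusted p up to 0.118 for Mt1 and 0.203 for Mt2 over the single libraries left out. The Mt2 call there ended without replicate 2 or 3 as well, and with a block on the replicate number. Without replicate 2 of PWK/PhJ, its highest, the Mt2 call ended there, with adjusted p up to 0.213. With the Kupffer and endothelial list means as covariates the PWK/PhJ call ended as well. That strain had the highest endothelial list mean (5.08 ± 0.93, log2), and the part of those cells in the level was not tested further.

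The strain effect on Mt1 passed in 12 of 35 alternative fits, with adjusted p from 0.00242 without a filter on low counts to 0.168 with 1 library left out, and DESeq2 gave 0.0472. The strain effect on Mt2 was lost in 9 of 35, over a range of 0.00106 to 0.101. It was lost, among others, with the Kupffer and endothelial covariates (0.0668) and without replicate 2 or 4 of C57BL/6J, replicate 1 or 2 of PWK/PhJ or any of the 3 NOD/ShiLtJ libraries.

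The metallothioneins were set apart from the other members by their spread within strains. The pooled SD of log2 CPM among libraries of the same strain was 0.843 for Mt1 and 1.077 for Mt2, against a median of 0.218 for the 6336 genes averaging at least 10 CPM. Of those genes 67 had a larger SD than Mt1 and 31 a larger SD than Mt2. The other 8 members had SDs of 0.182 (Cp) to 0.323 (Slc30a10). No test of that spread was made.

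**Figure D2:**
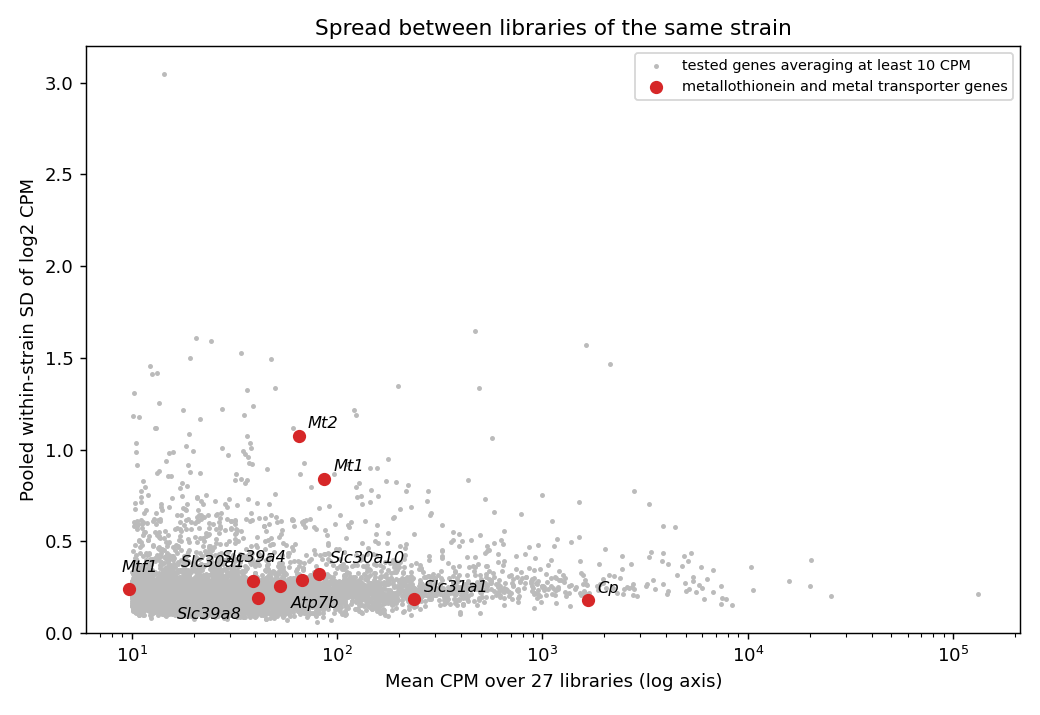
Pooled SD of log2 CPM between libraries of the same strain against mean CPM (log axis), for 6336 genes averaging at least 10 CPM (grey) and the 10 members (red; Mtf1 averaged 9.68 CPM). Mt2 and Mt1 stand at 1.077 and 0.843, and the other 8 members lie between 0.182 and 0.323 within the bulk of genes.

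The metallothioneins varied together from library to library. Over library deviations from the strain mean of log2 CPM, the scale of all correlations here, Mt1 and Mt2 correlated at r = 0.978 (27 libraries, permutation within strains, two-sided, p = 1e-05, the smallest 100000 permutations can give, adjusted p = 9e-05 over 9 relations). In 25 of 27 libraries both genes lay on the same side of their strain mean. Over the 9 strain means Pearson's r was 0.867 (permutation p = 0.0017, adjusted p = 0.005) and Spearman's rho 0.817 (permutation p = 0.011, adjusted p = 0.032). Without NOD/ShiLtJ and PWK/PhJ, the strains farthest from the median of Mt1 by mean log2 CPM, r was 0.707. The sum of Mt1 and Mt2 ran from 17.9 CPM in NOD/ShiLtJ replicate 1 to 392 CPM in PWK/PhJ replicate 2, a range of 22.0-fold.

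The ratio of the genes was steadier than their sum, and differed by strain. There were more Mt1 than Mt2 counts in 24 of 27 libraries, with a median ratio of 1.46. The 3 exceptions were the PWK/PhJ libraries, with ratios of 0.902, 0.826 and 0.896. The strain means were 2.44 ± 0.395 (SD, n = 3) in C57BL/6J, 2.39 ± 1.21 in A/J, 2.18 ± 0.632 in 129S1/SvImJ, 1.59 ± 0.252 in NOD/ShiLtJ, 1.41 ± 0.147 in NZO/HlLtJ, 1.40 ± 0.297 in DBA/2J, 1.15 ± 0.0676 in WSB/EiJ, 1.08 ± 0.0605 in CAST/EiJ and 0.875 ± 0.0423 in PWK/PhJ. The 3 strains with the lowest ratios, WSB/EiJ, CAST/EiJ and PWK/PhJ, were the wild-derived ones. Whether reads of these strains were aligned to one reference genome or to genomes of their own is not given in the sources used here, and its part in their levels and ratios was not tested. Strain accounted for 78.0% of the variance of the log2 ratio (27 libraries, permutation test, p = 0.00019), a test chosen after the ratios had been seen, and for 51.8% of that of the log2 sum (p = 0.058). Within strains the ratio was lower where the sum was higher (r = -0.739). That sign follows from the closely shared deviations of the genes and the larger within-strain SD of Mt2, and is no separate result. A/J replicate 1, with 580 Mt1 and 153 Mt2 counts, had the highest ratio, 3.79. Mt2 overlaps an antisense gene, Gm45774, and the kit named in the labels does not mark the strand, so reads of Mt2 and of Gm45774 cannot be told apart.

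**Figure D3:**
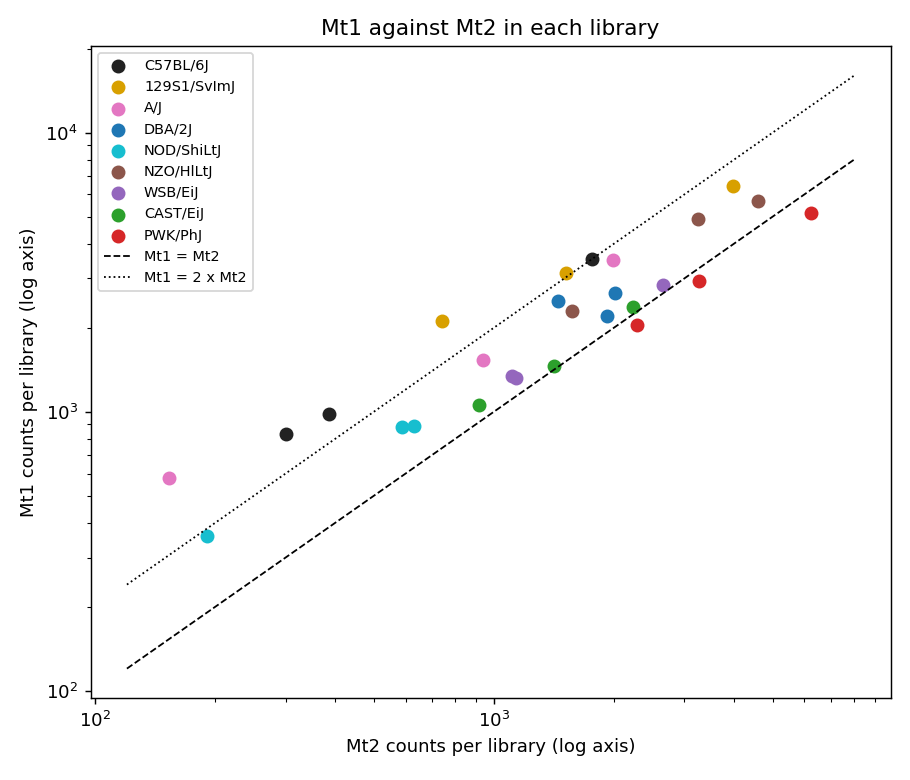
Mt1 counts against Mt2 counts in each of 27 libraries (both axes log), coloured by strain, with lines where Mt1 equals Mt2 and where it is double. The libraries follow a diagonal band, the 3 PWK/PhJ libraries lie below the line of equal counts, and A/J replicate 1 lies farthest above it.

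Because these genes varied together and MTF1 is known to bind near their starts, their start regions are printed here, from RefSeq on GRCm38.p6, as 300 bases from 250 before to 50 after the start. Capitals mark matches to the core of the metal response element, TGCACNC or TGCGCNC on either strand. Positions are counted from the RefSeq start, which in these 3 windows differs from the GENCODE gene start given in the text. Where transcription starts in hepatocytes was not tested. The Mt1 window is chr8:94178839-94179138, plus strand, with 3 matches, whose first bases lie at -23, 3 and 21 from the start. The Mt2 window is chr8:94172368-94172667, plus strand, with 4 matches, at -223, -128, -50 and 5. The Slc30a1 window, of another gene that MTF1 is known to bind, is chr1:191906531-191906830, plus strand, with 2 matches, at -43 and 31.
Mt1: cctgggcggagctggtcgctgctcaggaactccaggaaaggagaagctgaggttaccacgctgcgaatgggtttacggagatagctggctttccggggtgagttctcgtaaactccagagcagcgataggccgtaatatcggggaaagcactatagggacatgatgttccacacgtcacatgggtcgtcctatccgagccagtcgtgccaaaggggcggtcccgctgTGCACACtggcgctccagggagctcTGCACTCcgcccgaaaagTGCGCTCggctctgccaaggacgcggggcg
Mt2: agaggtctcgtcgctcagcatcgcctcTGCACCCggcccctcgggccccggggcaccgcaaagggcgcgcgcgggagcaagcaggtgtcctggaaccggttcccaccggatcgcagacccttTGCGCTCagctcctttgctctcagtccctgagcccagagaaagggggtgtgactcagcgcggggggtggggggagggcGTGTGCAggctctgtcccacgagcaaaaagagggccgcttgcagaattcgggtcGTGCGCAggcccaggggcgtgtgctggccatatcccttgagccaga
Slc30a1: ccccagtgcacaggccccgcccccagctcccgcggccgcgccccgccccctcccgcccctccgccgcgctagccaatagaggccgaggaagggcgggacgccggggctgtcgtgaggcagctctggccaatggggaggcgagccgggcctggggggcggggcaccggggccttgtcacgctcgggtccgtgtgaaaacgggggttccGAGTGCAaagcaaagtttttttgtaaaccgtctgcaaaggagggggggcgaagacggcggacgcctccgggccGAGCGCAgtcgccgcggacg

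Of 32851 windows of this length, 25.7% held at least 1 match, 7.11% at least 2, 1.97% at least 3 and 0.517% at least 4. Among the 9 members with an entry in the table, Slc30a10 held 3 matches, of which 2 overlapped on opposite strands, Atp7b held 1, and 1 of the 2 start windows of Slc39a8 held 1. None was found in these windows of Mtf1, Cp or Slc31a1. A match describes letters and is no measure of binding.

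Mtf1 itself (chromosome 4, 124802104 to 124849800, plus strand) was low and nearly level. Its strain means lay between 8.31 ± 0.288 CPM (SD, n = 3) in A/J and 11.3 ± 1.38 in CAST/EiJ, a log2 difference of 0.45 ± 0.20 (SE). The libraries of A/J had 8.04, 8.28 and 8.61 CPM and those of CAST/EiJ 12.6, 11.5 and 9.85, while PWK/PhJ alone spanned 6.79, 9.66 and 13.6. The other means were 10.5 ± 0.688 in WSB/EiJ, 9.98 ± 1.93 in C57BL/6J, 9.77 ± 1.88 in DBA/2J, 9.50 ± 1.04 in 129S1/SvImJ, 9.16 ± 1.15 in NOD/ShiLtJ and 8.54 ± 1.28 in NZO/HlLtJ. No pair of strains was called by edgeR (2 of 36 at an unadjusted p under 0.05) or by DESeq2 (2 of 36 likewise). No relation of Mt1 with Mtf1 passed the threshold over strain means (r = -0.066, permutation p = 0.87, rho = -0.233, p = 0.55, n = 9, and r = -0.437 without NOD/ShiLtJ and PWK/PhJ) or within strains (r = 0.001). Counts of Mtf1 were fractional in all 27 libraries, and it overlaps 1110065P20Rik on the opposite strand, so its level is uncertain to the extent that reads were shared.

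Slc30a1 (chromosome 1, 191906767 to 191913247, plus strand) encodes the zinc exporter of the plasma membrane. WSB/EiJ and A/J had the most and 129S1/SvImJ the least. The libraries held 52.9, 56.1 and 49.8 CPM in WSB/EiJ, 39.4, 57.2 and 56.8 in A/J and 28.6, 20.6 and 23.3 in 129S1/SvImJ. The 129S1/SvImJ libraries lay below all others but 1: replicate 2 of NZO/HlLtJ, at 24.2 CPM, fell among them. Between these ends stood C57BL/6J (41.8 ± 9.55 CPM, SD, n = 3), PWK/PhJ (41.3 ± 12.2), CAST/EiJ (41.1 ± 7.55), DBA/2J (36.8 ± 5.52), NZO/HlLtJ (31.6 ± 7.87) and NOD/ShiLtJ, whose 3 libraries at 28.8, 29.3 and 29.4 CPM were nearly equal. WSB/EiJ exceeded 129S1/SvImJ by a log2 of 1.13 ± 0.22 (SE), and 9 of 36 pairs were called.

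Against the other 8 strains Slc30a1 fell in 129S1/SvImJ (log2 -0.72 ± 0.17, adjusted p = 0.00462) and rose in WSB/EiJ (0.55 ± 0.15, adjusted p = 0.0107) and A/J (0.49 ± 0.16, adjusted p = 0.021). Each call rested on single libraries: it ended without 129S1/SvImJ replicate 2, WSB/EiJ replicate 3, or A/J replicate 2 or 3. NOD/ShiLtJ, lowest in both metallothioneins, was also low in Slc30a1 but not called (-0.42 ± 0.17, adjusted p = 0.102). A relation of Mt1 with Slc30a1 did not pass over strain means (r = -0.016, permutation p = 0.97, rho = -0.217, p = 0.58, n = 9), and without NOD/ShiLtJ and PWK/PhJ r was -0.695. Within strains r was 0.482 (permutation p = 0.046, adjusted p = 0.083), which misses the threshold over the 9 relations. Slc30a1 counts were fractional in 25 libraries and an antisense gene, 1700034H15Rik, overlaps it.

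Slc39a4 (chromosome 15, 76612383 to 76617384, minus strand), a zinc importer known chiefly from the intestine, had the largest log2 range of strain means among the 10 members after Mt1 and Mt2. C57BL/6J libraries held 79.8, 109.9 and 111 CPM, A/J 76.5, 74.5 and 123 and WSB/EiJ 102, 89.5 and 69.97. CAST/EiJ held 33.7, 27.9 and 32.3, below every library of the other strains, and NZO/HlLtJ 49.7, 38.8 and 44.6 and PWK/PhJ 55.0, 53.1 and 36.3 came next. The first 3 strains lay wholly above the last 3. The means of the rest were 72.0 ± 11.4 CPM (SD, n = 3) in 129S1/SvImJ, 65.3 ± 5.78 in NOD/ShiLtJ and 65.1 ± 21.0 in DBA/2J. C57BL/6J exceeded CAST/EiJ by a log2 of 1.68 ± 0.23 (SE), a 3.204-fold difference, and 15 of 36 pairs were called. CAST/EiJ was lower than 7 of the 8 other strains, NZO/HlLtJ being the exception.

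Compared with the other 8, Slc39a4 rose in C57BL/6J (log2 0.75 ± 0.16, adjusted p = 0.00128), A/J (0.60 ± 0.16, adjusted p = 0.00676) and WSB/EiJ (0.52 ± 0.16, adjusted p = 0.0178), and fell in CAST/EiJ (-1.14 ± 0.18, adjusted p = 2.4e-05), NZO/HlLtJ (-0.58 ± 0.17, adjusted p = 0.0167) and PWK/PhJ (-0.44 ± 0.17, adjusted p = 0.0493). The CAST/EiJ call held with each library left out and under each other alternative run. The PWK/PhJ call, next to the threshold, ended in 15 of 27 fits that left out 1 library, each PWK/PhJ library among them. The A/J call ended without A/J replicate 3, that in WSB/EiJ without its replicate 2 or 3 and that in NZO/HlLtJ without its replicate 2 or 3. With the Kupffer and endothelial list means as covariates the calls in C57BL/6J, A/J and NZO/HlLtJ ended. The first 2 of these had the highest Kupffer list means, and the endothelial list mean was lowest in NZO/HlLtJ (2.73 ± 0.43, log2). The part of those cells in these levels was not tested.

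Slc39a8 (chromosome 3, 135825279 to 135888572, plus strand) imports manganese and zinc, and Slc30a10 (chromosome 1, 185454848 to 185468762, plus strand) exports manganese. Slc39a8 was highest in A/J, at 50.6, 51.3 and 63.0 CPM, and WSB/EiJ, at 48.5, 60.8 and 45.7. It was lowest in NZO/HlLtJ, at 28.5, 28.1 and 32.7. The NZO/HlLtJ libraries overlapped only DBA/2J, whose replicate 4 had 29.7 CPM beside 44.5 and 45.8 in replicates 2 and 3. The other means were 45.3 ± 3.41 CPM (SD, n = 3) in C57BL/6J, 40.3 ± 9.13 in PWK/PhJ, 39.98 ± 8.94 in DBA/2J, 37.8 ± 2.09 in CAST/EiJ, 37.7 ± 1.18 in 129S1/SvImJ and 35.5 ± 2.04 in NOD/ShiLtJ. A/J exceeded NZO/HlLtJ by a log2 of 0.88 ± 0.16 (SE), and 11 of 36 pairs were called. Relative to the other 8, Slc39a8 rose in A/J (log2 0.49 ± 0.12, adjusted p = 0.00299) and WSB/EiJ (0.38 ± 0.12, adjusted p = 0.0167) and fell in NZO/HlLtJ (-0.51 ± 0.13, adjusted p = 0.00419). The A/J and WSB/EiJ calls each ended without replicate 3 of that strain, and the NZO/HlLtJ call ended with the Kupffer and endothelial covariates.

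Slc30a10 was highest in DBA/2J, where the libraries held 110.1, 120 and 103 CPM, and lowest in 129S1/SvImJ, at 60.1, 50.5 and 55.3. These 2 strains did not overlap. A/J, at 107, 57.3 and 108 CPM, and WSB/EiJ, at 109.5, 107 and 51.9, each held a pair of libraries at the DBA/2J level and 1 at the 129S1/SvImJ level. The remaining means ran from 82.6 ± 4.32 CPM (SD, n = 3) in NOD/ShiLtJ through 81.1 ± 10.2 in NZO/HlLtJ, 78.0 ± 13.2 in C57BL/6J and 75.7 ± 12.4 in PWK/PhJ to 74.0 ± 17.6 in CAST/EiJ. DBA/2J exceeded 129S1/SvImJ by a log2 of 1.01 ± 0.24 (SE). The pairs called were 3 of 36: 129S1/SvImJ below DBA/2J, A/J and WSB/EiJ. Slc30a10 fell in 129S1/SvImJ against the other 8 (log2 -0.61 ± 0.19, adjusted p = 0.0252) and rose in DBA/2J (0.52 ± 0.17, adjusted p = 0.0443). The first call ended without any 1 of the 3 129S1/SvImJ libraries. It ended too with the Kupffer and endothelial covariates, and the part of those cells was not tested. The second ended in 15 of 27 fits that left out 1 library, each DBA/2J library among them, and the strain effect itself was lost in 20 of 27, with adjusted p from 0.00561 to 0.136 over all alternatives.

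The manganese importer and exporter did not keep one order of strains. Over strain means r was 0.191 (permutation p = 0.64, adjusted p = 0.82, n = 9) and rho 0.35 (p = 0.36), and without A/J and NZO/HlLtJ r was 0.187. Within strains their deviations were related, with r = 0.524 (27 libraries, permutation p = 0.016, adjusted p = 0.042), and 21 of 27 libraries lay on the same side for both genes. Slc30a10 counts were fractional in all libraries, and Gm2061 overlaps it on the opposite strand.

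Among the copper genes, the importer split the strains into a higher and a lower set. Slc31a1 (chromosome 4, 62360727 to 62391769, plus strand), the high-affinity copper importer, had 301, 274 and 362 CPM in A/J, 228, 345 and 329 in C57BL/6J and 266, 303 and 287 in WSB/EiJ. PWK/PhJ held 327, 251 and 238 and DBA/2J 257, 292 and 209. The other 4 strains lay wholly below these 5: NOD/ShiLtJ at 192, 203 and 193, 129S1/SvImJ at 176, 198 and 187, NZO/HlLtJ at 173, 190.0 and 193 and CAST/EiJ at 150.2, 142 and 165. The CAST/EiJ libraries were below those of every other strain. A/J (312 ± 44.8 CPM, SD, n = 3) exceeded CAST/EiJ (152 ± 11.7) by a log2 of 1.04 ± 0.16 (SE), and 17 of 36 pairs were called, the most of any member. All 17 set 1 of the 5 higher strains above 1 of the 4 lower ones. A/J, C57BL/6J, WSB/EiJ and PWK/PhJ each exceeded all 4 lower strains, and DBA/2J exceeded CAST/EiJ alone. The sets were read from these same values. The pair at their boundary, DBA/2J over NOD/ShiLtJ, was not called (log2 0.37 ± 0.16, edgeR adjusted p = 0.157).

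Atp7b (chromosome 8, 21992785 to 22060305, minus strand), the copper pump whose loss causes Wilson disease in people, divided the strains in much the same way. The A/J libraries held 59.0, 66.8 and 87.7 CPM, those of C57BL/6J 51.8, 62.0 and 81.1 and those of PWK/PhJ 78.1, 54.4 and 50.3. DBA/2J held 58.1, 66.6 and 47.1 and WSB/EiJ 59.1, 66.0 and 40.3. The 4 strains low in Slc31a1 were again the lowest: 129S1/SvImJ at 50, 42.8 and 43.4, NZO/HlLtJ at 43.7, 38.3 and 50.9, NOD/ShiLtJ at 39.99, 39.98 and 35.7 and CAST/EiJ at 37.9, 40.8 and 35.7. Here the groups overlapped, since DBA/2J replicate 4, WSB/EiJ replicate 4 and PWK/PhJ replicate 3 stood at 47.1, 40.3 and 50.3 CPM. A/J over CAST/EiJ came to a log2 of 0.90 ± 0.20 (SE), and 11 of 36 pairs were called.

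Since the strain means of Slc31a1 fell into 2 ranges, 152 to 196 CPM in 4 strains and 253 to 312 CPM in 5, no correlation with Atp7b over strains is given. Atp7b means were 38.1 to 45.4 CPM in the former and 55.2 to 71.1 CPM in the latter. Within strains, deviations of Slc31a1 and Atp7b were related (r = 0.614, 27 libraries, permutation p = 0.019, adjusted p = 0.042), with 17 of 27 libraries on the same side for both. Both transcripts are long, at 3718 and 6505 bases. The 4 lower strains were the 4 in which long transcripts stood below short ones (by 0.10 to 0.19), as deviations from gene means over all libraries. The 5 higher strains had values of 0.00 to 0.27. With the length trend removed from each library, A/J exceeded CAST/EiJ by a log2 of 0.96 in Slc31a1 (strain effect on Slc31a1, edgeR adjusted p = 3.34e-05) and 0.78 in Atp7b (strain effect on Atp7b, adjusted p = 0.00292). The split into 2 ranges was tested neither in that fit nor in the main one.

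Cp (chromosome 3, 19957054 to 20009145, plus strand) encodes ceruloplasmin, which carries copper in plasma and oxidises iron. Its NZO/HlLtJ libraries held 955, 979 and 1046 CPM, below all 24 others. A/J had the most, at 2073, 1952 and 2747, and WSB/EiJ followed at 2245, 2321 and 1999. The other means were 1760 ± 262 CPM (SD, n = 3) in C57BL/6J, 1759 ± 312 in DBA/2J, 1705 ± 86.4 in NOD/ShiLtJ, 1557 ± 298 in PWK/PhJ, 1437 ± 49.2 in 129S1/SvImJ and 1357 ± 95.5 in CAST/EiJ. A/J exceeded NZO/HlLtJ by a log2 of 1.18 ± 0.17 (SE), a 2.27-fold difference, and 13 of 36 pairs were called. NZO/HlLtJ was below 7 strains by that test, and CAST/EiJ, its neighbour, did not overlap it but missed the threshold (log2 0.45 ± 0.17, adjusted p = 0.052 by edgeR and 0.0191 by DESeq2).

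Ceruloplasmin is made in greater amounts during inflammation, so it was set beside 15 acute phase genes, a list that does not hold Cp. Cp followed the list's mean log2 level across strains (Pearson's r = 0.924, permutation p = 0.00033, adjusted p = 0.003, rho = 0.95, permutation p = 0.00036, adjusted p = 0.0032, n = 9), and without A/J and NZO/HlLtJ r was 0.946. The list was highest in WSB/EiJ (9.07 ± 0.46, SD, n = 3) and A/J (8.80 ± 0.34) and lowest in 129S1/SvImJ (7.59 ± 0.23) and NZO/HlLtJ (7.5 ± 0.26). Within strains the relation missed the threshold (r = 0.458, permutation p = 0.059, adjusted p = 0.088). The list of 10 hepatocyte markers was also highest in WSB/EiJ (13.07 ± 0.05) and A/J (12.9 ± 0.17). It was lowest in CAST/EiJ (11.98 ± 0.12) and NZO/HlLtJ (12.33 ± 0.1). Over the 27 libraries 250 genes had an r over 0.8 with Cp. Whether the relation of Cp is particular to acute phase genes was not tested. Atp7b and Cp were related within strains (r = 0.763, permutation p = 0.002, adjusted p = 0.0091) but not past the threshold over strain means (r = 0.591, permutation p = 0.09, adjusted p = 0.2, rho = 0.717, permutation p = 0.037, adjusted p = 0.082, n = 9, and r = 0.75 without NOD/ShiLtJ and CAST/EiJ). Over strains no relation of Mt1 passed with the acute phase list (r = -0.23, permutation p = 0.57, rho = -0.317, p = 0.41, n = 9) or with 9 glucocorticoid-induced genes (r = -0.501, permutation p = 0.17, adjusted p = 0.31, rho = -0.567, p = 0.12). Without NOD/ShiLtJ and PWK/PhJ these r values were -0.428 and -0.174. Within strains the relations of Mt1 with these lists were positive and did not pass either (r = 0.277, permutation p = 0.22, adjusted p = 0.25, and r = 0.388, permutation p = 0.14, adjusted p = 0.18).

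**Figure D4:**
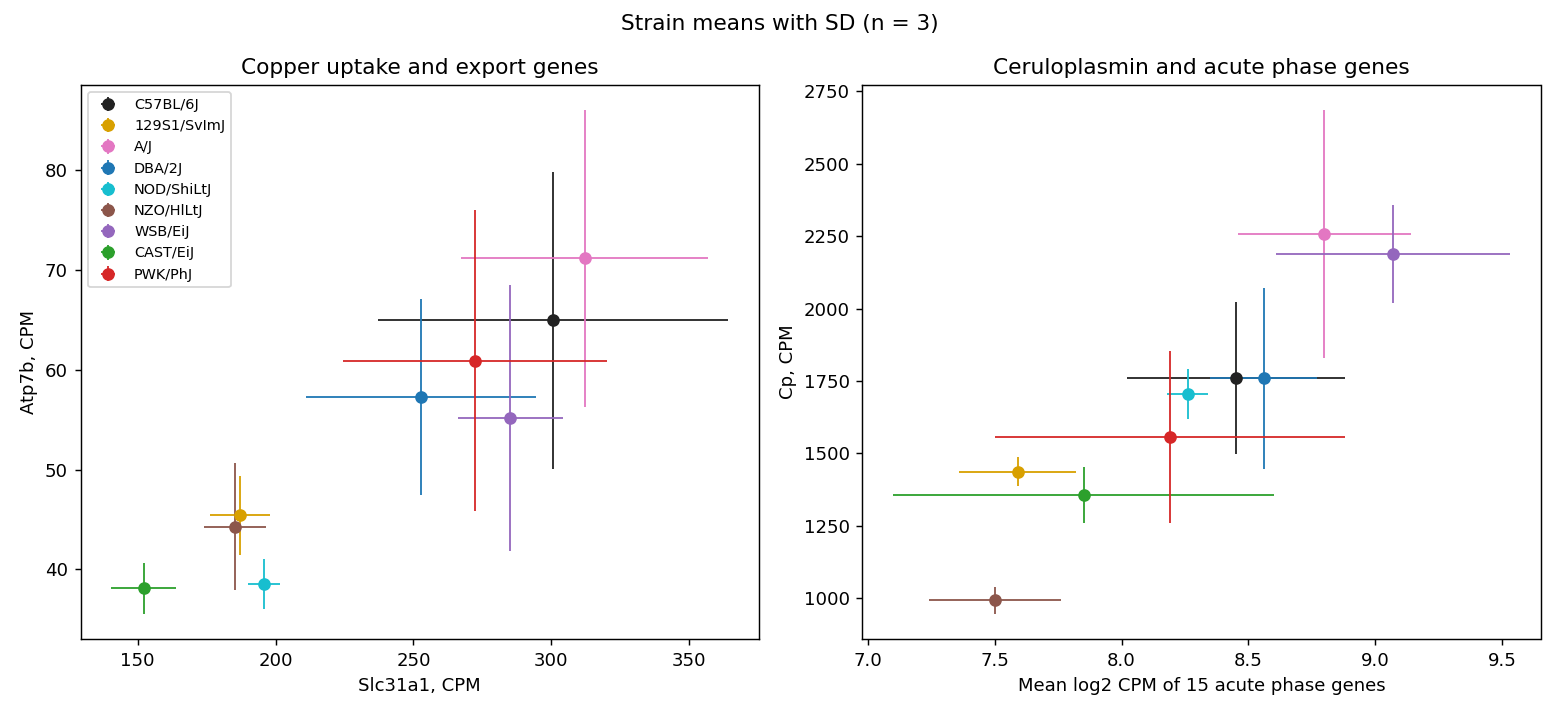
Strain means with SD (n = 3): on the left Atp7b against Slc31a1, both in CPM, and on the right Cp in CPM against the mean log2 CPM of 15 acute phase genes. On the left CAST/EiJ, NZO/HlLtJ, 129S1/SvImJ and NOD/ShiLtJ lie apart at the lower left, and on the right NZO/HlLtJ is lowest and A/J and WSB/EiJ are highest.

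Strain by strain, against the mean of the other 8, the calls over the 10 members ran in 1 direction in each strain except PWK/PhJ. A/J had 6 higher and 0 lower, where 15.9% of all genes were called higher and 11.6% lower. They were Slc30a1, Slc39a4, Slc39a8, Atp7b (log2 0.52 ± 0.14, adjusted p = 0.00879), Cp (0.53 ± 0.12, adjusted p = 0.00212) and Slc31a1 (0.49 ± 0.11, adjusted p = 0.00289), all between 0.49 and 0.60. All 6 rested on replicate 3, in which Slc39a4, Slc39a8, Atp7b, Cp and Slc31a1 were highest of the strain: without it edgeR called 0 of 10 members (4 at an unadjusted p under 0.05). All 6 of these transcripts are 2750 bases or longer, and with the length trend removed from each library the count was 6 again. WSB/EiJ had 5 higher and 0 lower, against 15.5% and 9.23% of all genes: Slc30a1, Slc39a4, Slc39a8, Cp (log2 0.48 ± 0.12, adjusted p = 0.00465) and Slc31a1 (0.34 ± 0.12, adjusted p = 0.0342). The count was 1 without WSB/EiJ replicate 3 and 3 without replicate 2. The Slc31a1 call there ended without any 1 of the 3 WSB/EiJ libraries. It ended too with no filter on low counts and with a block on the replicate number. In C57BL/6J 2 were higher and 0 lower (11.6% and 6.5% of all genes): Slc39a4 and Slc31a1 (log2 0.42 ± 0.12, adjusted p = 0.0114). The Slc31a1 call ended without C57BL/6J replicate 2 or 4. With the Kupffer and endothelial covariates the count was 0 (3 at an unadjusted p under 0.05), and the part of those cells in these levels was not tested further.

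The strains with lower calls only were NZO/HlLtJ, CAST/EiJ, NOD/ShiLtJ and 129S1/SvImJ. NZO/HlLtJ had 4 lower and 0 higher, where 12.9% of all genes were lower and 14.8% higher: Slc39a4, Slc39a8, Cp (log2 -0.80 ± 0.14, adjusted p = 0.000122) and Slc31a1 (-0.36 ± 0.12, adjusted p = 0.0327). The count was 2 without NZO/HlLtJ replicate 2 or 3 and 1 with the cell type covariates, Cp being the call that held. The Slc31a1 call there ended without any 1 of the 3 NZO/HlLtJ libraries, WSB/EiJ replicate 3 or NOD/ShiLtJ replicate 2. It ended too with no filter on low counts and with a block on the replicate number. CAST/EiJ had 3 lower and 0 higher (17.8% and 20.1% of all genes): Slc39a4, Slc31a1 (log2 -0.68 ± 0.13, adjusted p = 0.000153) and Atp7b (-0.49 ± 0.16, adjusted p = 0.0148). The Atp7b call ended without CAST/EiJ replicate 1 or 5 and with a block on the replicate number. The others held with each library left out. NOD/ShiLtJ had 3 lower and 0 higher (5.72% and 9.2%), namely Mt1, Mt2 and Atp7b (log2 -0.48 ± 0.16, adjusted p = 0.0401). Without NOD/ShiLtJ replicate 1 the count was 0 (3 at an unadjusted p under 0.05), and without replicate 2 or 3 it was 1. The Atp7b call there also ended without CAST/EiJ replicate 4, NZO/HlLtJ replicate 3 or 129S1/SvImJ replicate 1. Over the libraries left out its edgeR adjusted p ran up to 0.196. The call ended too with the length trend removed and with a block on the replicate number. 129S1/SvImJ had 2 lower and 0 higher (7.86% and 10.5%), namely Slc30a1 and Slc30a10. Without its replicate 2 the count was 0 (3 at an unadjusted p under 0.05), and without replicate 1 or 3 it was 1.

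DBA/2J had 1 higher and 0 lower, where 9.5% of all genes were called higher and 3.77% lower. PWK/PhJ had 1 higher, Mt2, and 1 lower, Slc39a4 (19.4% and 14.8% of all genes). Without PWK/PhJ replicate 2 its count was 0 (2 at an unadjusted p under 0.05). The 9 contrasts share libraries, so their counts are not independent.

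**Figure D5:**
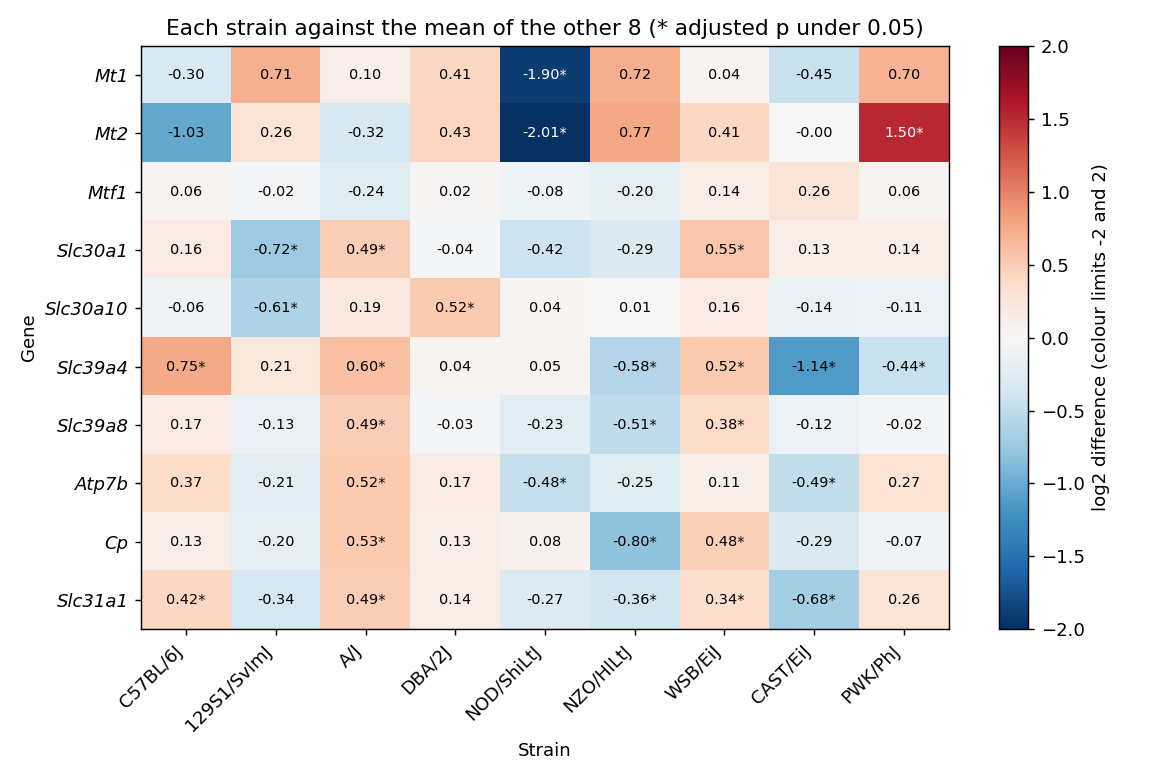
Log2 difference of each strain from the mean of the other 8 for the 10 genes, written in each cell and coloured from -2 to 2, with an asterisk where the adjusted p was under 0.05. Asterisks fall on higher values in A/J (6), WSB/EiJ (5), C57BL/6J (2) and DBA/2J (1), and on lower values in NZO/HlLtJ (4), CAST/EiJ (3), NOD/ShiLtJ (3) and 129S1/SvImJ (2), while PWK/PhJ has 1 of each.

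With 3 libraries a strain, adjacent places in an order of strains were not resolved. Of 80 pairs of neighbours in the 10 orders, edgeR called 0 (4 at an unadjusted p under 0.05) and DESeq2 called 1, the Cp pair above. In 8 of the 80 the libraries did not overlap, and no such count was made over all tested genes.

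The genes whose level over the 27 libraries was most like that of a member were found by Pearson's r of log2 CPM, over libraries that share strain and depth differences. For Mt1 the nearest was Mt2 (r = 0.92), and the next were Cables1 (0.661), Rmnd1 (0.652), Ssh1 (0.636) and Ism2 (0.626). For Mt2 they were Mt1, Lingo4 (0.702), Ripply1 (0.693), Pced1b (0.664) and Crym (0.663). For each metallothionein the other was the only gene with r over 0.8. For Slc31a1 there were 285 such genes, led by Ccdc47 (0.934), Tmem127 (0.917), Pgrmc1 (0.916), Snx14 (0.914) and Mfsd14a (0.912). Cp had 250, led by Rnf128 (0.952), Itfg1 (0.939), Mbl1 (0.932), Emc7 (0.93) and Itgb1 (0.914). Slc39a4 had 151, led by Lamp1 (0.908), Itm2b (0.903), Ormdl1 (0.9), Enpep (0.895) and Tpp1 (0.894).

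Of 45 other genes of metal handling, 40 were tested and 36 (90%) differed among the strains, where 74.2% of all tested genes did. The brain and skin metallothioneins Mt3 and Mt4 averaged 0.00224 and 0 CPM and were not tested. Genes from among the 8 with the largest F, of those averaging at least 1 CPM, are described here. Steap3, a metalloreductase for iron and copper, stood at 3.83 ± 0.215 CPM (SD, n = 3) in CAST/EiJ and between 32.9 ± 9.98 (PWK/PhJ) and 80.0 ± 16.3 (WSB/EiJ) elsewhere. Its relative Steap2 was also lowest in CAST/EiJ, at 0.611 ± 0.230 CPM, and highest in C57BL/6J, at 13.2 ± 0.949. Both fell in CAST/EiJ against the other 8, by 3.62 ± 0.19 and 3.85 ± 0.24 on the log2 scale (edgeR adjusted p = 7e-14 and 2.83e-12). The part of the genome used for alignment in these CAST/EiJ levels was not tested.

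Among zinc importers, Slc39a5 was highest in NOD/ShiLtJ (30.5 ± 6.24 CPM, SD, n = 3) and NZO/HlLtJ (14.96 ± 2.83) and low in PWK/PhJ (0.404 ± 0.422), CAST/EiJ (0.549 ± 0.151) and WSB/EiJ (1.02 ± 0.400). NOD/ShiLtJ exceeded the mean of the other 8 in Slc39a5 by a log2 of 3.70 ± 0.23 (edgeR adjusted p = 9.62e-12). Slc39a2 ran from 5.44 ± 3.198 CPM in 129S1/SvImJ to 0.0994 ± 0.0906 in CAST/EiJ. Slc39a14, a liver importer of zinc, manganese and iron, was highest in WSB/EiJ (368 ± 56.5 CPM) and A/J (321 ± 86.2), the strains highest in Slc39a8, and lowest in PWK/PhJ (132 ± 21.5). The iron exporter Slc40a1, which Kupffer cells also express, was highest in WSB/EiJ (354 ± 90.03) and lowest in NZO/HlLtJ (113 ± 23.6). Ccs, the copper chaperone of superoxide dismutase, ran from 48.1 ± 6.51 in WSB/EiJ to 91.3 ± 5.44 in CAST/EiJ.

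Counted strain by strain over these 40 genes, CAST/EiJ had 8 higher and 13 lower, where 20.1% of all tested genes were higher and 17.8% lower. WSB/EiJ had 13 higher and 5 lower (15.5% and 9.23% of all genes) and A/J 12 higher and 5 lower (15.9% and 11.6%). NZO/HlLtJ had 6 higher and 7 lower (14.8% and 12.9%), and PWK/PhJ 5 higher and 6 lower (19.4% and 14.8%). C57BL/6J had 6 higher and 3 lower (11.6% and 6.5%), 129S1/SvImJ 4 and 5 (10.5% and 7.86%), DBA/2J 4 and 1 (9.5% and 3.77%), and NOD/ShiLtJ 2 and 1 (9.2% and 5.72%). No test was made of these counts against the rest of the genes.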

How the data were processed

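RNA-seq was made from hepatocytes of 27 female mice of 12 weeks, 3 per strain. Libraries were prepared from polyadenylated RNA with a kit that does not mark strand, per the labels' protocols. The authors deposited 1 table of estimated counts for 43346 genes: 14.71% of its values are not whole. FastQC 0.11.5, DESeq2 and the GRCm38 (mm10) build are named in the submitters' processing notes. The aligner, the counter and whether strain-specific genomes were used are not given in the sources used here.

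The estimated counts were rounded, which moved library totals by at most 0.00024%. Symbols and positions came from GENCODE M21, which matched 42462 identifiers. Genes were filtered with filterByExpr by strain, scaled by TMM (factors 0.722 to 1.226) and fitted with edgeR 4.0.16 (glmQLFit, glmQLFTest, R 4.3.3) over all 27 libraries. Tests covered all strains together, each strain against the other 8 and all 36 pairs, each with Benjamini-Hochberg adjustment over 14482 genes. Log2 CPM used a prior count of 2. Correlations used 100000 two-sided permutations. Libraries of the same strain differed beyond sampling noise (chi-square per degree of freedom 24.4 to 134.7), so none was merged.

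Alternatives were DESeq2 1.42.0, median-of-ratios factors, other filters, a block on the replicate number, cell type lists as covariates, each library left out, and, chosen after seeing the data, removal of trends on transcript length or GC content. The script was tested on simulated data. The members and gene lists were chosen with earlier results of these data known. All members are named. From the wider metal list the 8 genes with the largest F averaging at least 1 CPM are named, except 1 that is not reported here, and for Mt1, Mt2 and the 3 other members with the largest F the 5 most correlated genes. The marker lists for stellate cells (19.1 to 106 CPM in sum), lymphocytes (0.118 to 2.16), erythroid cells (2.19 to 36.6), cholangiocytes (1.57 to 9.64) and neutrophils (0 to 1.36) were low, with no gene at 0 in all libraries.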

Additional observations from a re-analysis of the deposited data

How the results depend on the processing

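Over 35 alternatives (29 for correlations) the members called among strains numbered 6 to 9 (8 as reported), the wider metal genes 34 to 37 (36), the strain calls 22 to 30 (28), the pair calls 75 to 98 (89) and the correlation of Mt1 with Mt2 was 0.823 to 0.892 (0.867). No called value changed direction. The correlations of Mt1 with Slc30a1 (-0.15 to 0.131) and with Mtf1 (-0.294 to 0.155), neither past the threshold, changed sign with single libraries left out. With 1 library left out, members called against the other 8 ranged from 1 to 3 in C57BL/6J, 0 to 3 in 129S1/SvImJ, 0 to 6 in A/J, 0 to 1 in DBA/2J, 0 to 3 in NOD/ShiLtJ, 2 to 4 in NZO/HlLtJ, 1 to 5 in WSB/EiJ and 0 to 2 in PWK/PhJ. CAST/EiJ gave 2 to 4. With the Kupffer and endothelial covariates the counts were 0 in C57BL/6J, 1 in 129S1/SvImJ and 1 in NZO/HlLtJ. PWK/PhJ gave 1 with median-of-ratios factors, with a mean of at least 10 counts and with the length trend removed. The cause of these changes was not tested.

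With the replicate number as a block (replicate block) NOD/ShiLtJ gave 1 call in place of 3, losing Mt2 and Atp7b, and the strain effect on Mt2 was lost (adjusted p = 0.0545). The calls of Atp7b in CAST/EiJ and of Slc31a1 in NZO/HlLtJ and WSB/EiJ were lost too, so that the strain calls numbered 23. Correlations of deviations between the 76 same-numbered pairs ran from -0.293 to 0.275 (median 0.023), with 17 over 0.1. Between the 248 pairs of other numbers they ran from -0.47 to 0.338 (median -0.004), with 44 over 0.1. Of 27 libraries, 7 were closest to one of their own number. Whether libraries of the same number shared a batch was not tested. The lowest count of a member in a library was 153, for Mt2 in A/J replicate 1.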

Other observations

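A pair of copper-linked genes outside the rule for naming, Atox1 and Sod1, was chosen after their values were seen. Atox1, the chaperone that hands copper to ATP7B, averaged 13.5 ± 5.12 CPM (SD, n = 3) in A/J, its lowest strain, and 46.6 ± 4.19 CPM in CAST/EiJ, its highest. Sod1, the copper and zinc superoxide dismutase, stood at 203 ± 53.0 CPM in A/J and 462 ± 34.0 CPM in CAST/EiJ. A/J was thus lowest in both and highest in Slc31a1, Atp7b and Cp, while CAST/EiJ was highest in both and lowest in Slc31a1 and Atp7b. Their transcripts are short, 541 and 641 bases, and short transcripts as a class were lower in A/J and higher in CAST/EiJ. With the length trend removed from each library, Atox1 differed from the other 8 strains by a log2 of -0.71 in A/J (edgeR adjusted p = 0.000524) and 0.83 in CAST/EiJ (adjusted p = 5.22e-06), against -0.90 and 1.11 before. Sod1 differed by -0.47 (adjusted p = 0.00288) and 0.38 (adjusted p = 0.00502), against -0.67 and 0.66.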
